A study of Sus scrofa with 4 samples.

Results

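The 8 genes described here are established parts of the transcriptional response to low oxygen: ADM, VEGFA, EGLN1, NDRG1, BNIP3, CA9, PDK1 and NDUFA4L2. They were chosen by name, with earlier results of these data known. All features of a gene were summed, so that 8 of 30282 gene identifiers form the set. All 8 were found in the feature table, 7 by symbol and EGLN1 by its identifier (ENSSSCG00000010172). The genes lie apart from each other on the pig genome (RefSeq, Sscrofa11.1), with ADM on chromosome 2 (49229223 to 49231521), VEGFA on chromosome 7 (38746393 to 38762282), NDRG1 on chromosome 4, CA9 on chromosome 1, PDK1 on chromosome 15 and NDUFA4L2 on chromosome 5. EGLN1 and BNIP3 share chromosome 14, where they start at 59113527 and 140362123.

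Single-cell RNA sequencing was compared between porcine pancreatic ductal organoids (PPDO), which are three-dimensional epithelial cultures grown from pig pancreatic ducts, and dispersed primary pig pancreas. Each group had 2 libraries of sorted live cells without any treatment named in the labels. By the study's results the PPDO lines came from a late postnatal and an adult pig and differed in passage, without labels that tie a line to a library. Its methods name these lines by postnatal days that both lie within its late postnatal range, so that the adult stage is uncertain. Both primary pancreata were late postnatal. By the study's methods the primary pancreata were processed on different days and enriched in unlike ways. The first was wild type, with duct fragments picked by hand. The second carried an INS-eGFP transgene, which marks insulin-producing cells, and pooled sorted cells that bound the duct lectin DBA, sorted eGFP cells and cells of the whole suspension. If the numbers in the titles follow those of the methods, these are primary pancreas 1 and 2, and genotype, day and enrichment cannot be told apart between their ductal-like sums. Organoid culture and group coincide in this design, so that effects of culture, medium, passage and animal cannot be told apart.

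Cells answer a fall in oxygen mainly through the hypoxia-inducible factors (HIF). Prolyl hydroxylases such as EGLN1 mark the HIF alpha subunits for destruction while oxygen is present, and EGLN1 is itself a HIF target. When the alpha subunits persist, they pair with ARNT and switch on genes for vessel growth, glycolysis, pH control and the removal or remodelling of mitochondria, and several of these genes also answer to other stresses and to growth signals.

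After filtering, 8885 and 7337 cells were kept in PPDO 1 and 2, and 5671 and 4261 cells in primary pancreas 1 and 2. PPDO cells were compared with primary ductal-like cells, of which there were 2157 and 1171, named from duct markers. Median depth per cell was 34176 and 34459 unique molecular identifiers (UMIs, counted molecules) in PPDO and 17846 and 20546 in ductal-like cells. Pairs of libraries shared between 10 and 23 cell barcodes. Different clusters made up the ductal-like class of the primary libraries. A cluster led by OSGIN1 and RND1 held 1297 cells of primary pancreas 1 and 0 of primary pancreas 2, and a cluster led by TMEM238 and SERPINA1 held 1 and 1107. The duct label of PPDO was met by KRT7, at 389 and 384 UMIs per 1000000 (CPM) against 549 and 595 CPM in ductal-like cells. It was not met by the chloride channel gene CFTR, at 1.04 and 0.636 CPM against 955 and 804 CPM, nor by SOX9, at 3.30 and 1.44 CPM against 322 and 355 CPM. The basal keratin gene KRT5 stood at 5420 and 7634 CPM in PPDO and at 0.325 and 0.280 CPM in ductal-like cells. By the study, most cells of the sequenced lines had moved with passage to a less mature duct state. In the study, PPDO stained for CFTR and SOX9 protein at early passage, and so did a late postnatal line at a passage that it calls transitioning.

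The first comparison asked how far the 8 genes differed between PPDO and the duct cells of the organ. As a sum, they took 2320 and 2149 CPM in PPDO and 350 and 412 CPM in ductal-like cells. Of the 8 genes, 7 rose in PPDO and none fell (edgeR quasi-likelihood test on sums per library, false discovery rate (FDR) under 0.05 over 23507 genes). Of all genes tested, 43.7% passed in either direction, 22.9% higher and 20.8% lower in PPDO. Without PPDO 1, 5129 of 21414 genes and 5 of the 8 passed, and without PPDO 2, 4675 of 21487 genes and 5 of the 8. In CPM, 26.3% of all genes were higher in both PPDO libraries than in both ductal-like sums, as were 7 of the 8. The median log2 fold change was 3.83 over the 8 genes and 0.01 over all genes. As the 8 genes were chosen with earlier results of these data known, setting them beside all genes is a description and not a test. With 2 libraries per group, p-values measure the spread between these libraries, and in sums fewer expressing cells and less RNA per cell cannot be told apart.

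**Figure D1:**
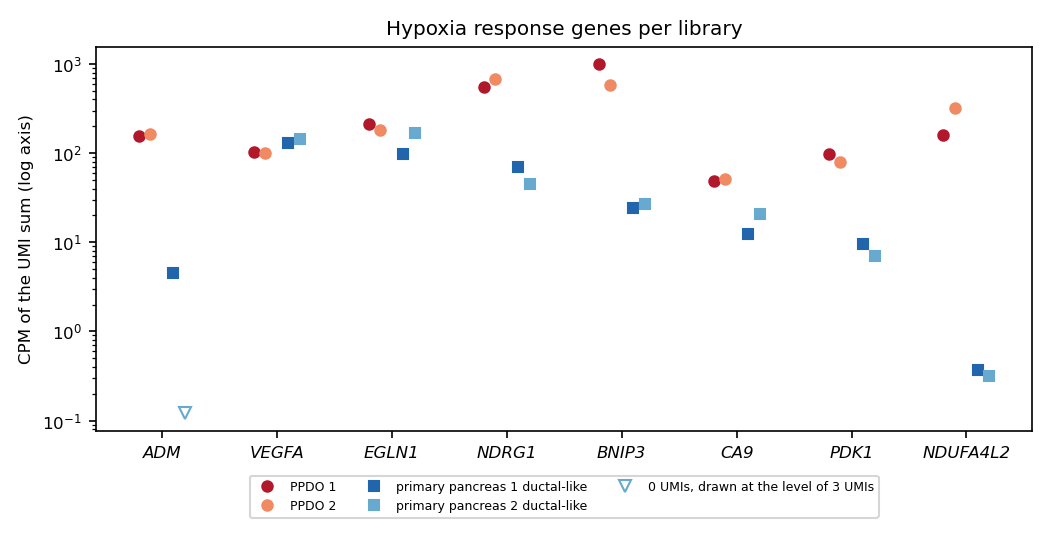
CPM of each gene (log axis) in PPDO 1 and 2 (circles) and in the primary ductal-like cells of libraries 1 and 2 (squares), where each point is the UMI sum of a library and the open triangle is a sum with 0 UMIs, drawn at the level of 3 UMIs. The groups were apart for all 8 genes, with PPDO above ductal-like cells for 7 and below for VEGFA. For VEGFA this holds with the 3' extensions counted and not for the gene body alone.

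Among the secreted signals, ADM encodes adrenomedullin, a peptide that relaxes vessels and acts on endothelium. It reached 158 and 163 CPM in PPDO. In ductal-like cells it stood at 4.48 CPM in primary pancreas 1 (193 UMIs) and had 0 UMIs in primary pancreas 2, where 3 UMIs would equal 0.120 CPM. The log2 fold change was 6.44 ± 1.63 (SE, FDR 0.033), and PPDO was at least 1334-fold higher than primary pancreas 2 at the level of 3 UMIs. The call was lost with DESeq2 (FDR 0.062), without PPDO 1 (log2 fold change 6.51, FDR 0.094) and without PPDO 2 (6.39, FDR 0.099). The fitted log2 fold change was 5.47 without primary pancreas 2, 9.91 without the OSGIN1 cluster and 17.97 without primary pancreas 1, where the ductal-like sum that is left has 0 UMIs, so that this last value depends on the prior count of the fit. Genes of the dissociation response also differed between the primary ductal-like sums, with FOS at 2028 and 178 CPM and ATF3 at 1343 and 134 CPM in primary pancreas 1 and 2, and their part in the ADM level was not tested.

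VEGFA, the main growth factor of blood vessels, was the exception. It stood at 103 and 99.6 CPM in PPDO and at 130 and 142 CPM in ductal-like cells, so that PPDO was lower on the plain CPM scale. After scaling for composition (TMM factors of 0.878 and 0.833 in PPDO and 1.07 and 1.27 in ductal-like cells), the log2 fold change was 0.03 (SE 0.12, 95% interval -0.30 to 0.35, edgeR FDR 0.89). The log2 fold change turned to -0.353 (edgeR FDR 0.15) without the ADM-led PPDO cluster described further on, which was picked for these genes among its leading genes. It turned to -0.066 with sums thinned to the smallest (edgeR FDR 0.77). It also depended on which part of the gene was counted. UMIs in the 3' extensions that the authors added to the annotation made up 19.8% and 29.2% of VEGFA in PPDO and 46.6% and 60.9% in ductal-like cells. In the gene body alone VEGFA stood at 82.9 and 70.5 CPM in PPDO and at 69.6 and 55.6 CPM in ductal-like cells, and the log2 fold change was 0.71 (edgeR FDR 0.056).

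EGLN1, the oxygen-sensing prolyl hydroxylase, showed the smallest of the 7 changes. It stood at 210 and 180 CPM in PPDO and at 98.7 and 169 CPM in ductal-like cells, so that PPDO 2 and primary pancreas 2 lay close together. The log2 fold change was 1.02 ± 0.22 (SE, FDR 0.020) after the same scaling for composition, which raises PPDO over ductal-like cells. On the plain CPM scale the means were 195 CPM in PPDO and 134 CPM in ductal-like cells. The call was lost without PPDO 1 and without PPDO 2, while the log2 fold change ran from 0.738 to 1.29 without any 1 library. The call was also lost without a PPDO cluster led by ADM that is described further on (log2 fold change 0.56, edgeR FDR 0.12). That cluster was picked for these genes among its leading genes, so that a lower value without it follows in part from the choice.

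Of the genes that act on mitochondria and metabolism, NDUFA4L2 had the largest fold change of all 8 in the fit with every library. Without primary pancreas 1 the fitted value of ADM was larger, as given above. NDUFA4L2, a relative of a cytochrome oxidase subunit that lowers respiration, was nearly absent from duct cells, with 16 UMIs (0.372 CPM) and 8 UMIs (0.320 CPM) in the ductal-like sums. In PPDO it reached 161 and 317 CPM, a log2 fold change of 9.85 ± 0.57 (SE, FDR 8.2e-04). BNIP3, a mitochondrial protein that promotes mitophagy, stood at 989 and 588 CPM in PPDO, the highest of the 8 in PPDO 1 and next to NDRG1 in PPDO 2, against 24.1 and 27.0 CPM (log2 fold change 5.39 ± 0.31 SE, FDR 8.1e-04). PDK1, which holds pyruvate back from the mitochondrion by inhibiting pyruvate dehydrogenase, stood at 97.1 and 78.7 CPM against 9.61 and 7.08 CPM (log2 fold change 3.82 ± 0.29 SE, FDR 0.0014). For each of these genes the lowest PPDO library lay far above the highest ductal-like sum. PPDO 1 and 2 differed from each other in opposite ways, with BNIP3 higher in PPDO 1 and NDUFA4L2 higher in PPDO 2.

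NDRG1, a stress-responsive gene linked to differentiation, stood at 554 and 672 CPM in PPDO and at 69.8 and 45.5 CPM in ductal-like cells (log2 fold change 3.83 ± 0.36 SE, FDR 0.0024). CA9, a cell surface carbonic anhydrase that buffers pH and is a common marker of hypoxic tumour tissue, stood at 48.2 and 51.7 CPM against 12.5 and 21.0 CPM (log2 fold change 2.05 ± 0.22 SE, FDR 0.0033). CA9 had the lowest CPM of the 8 in both PPDO libraries. Without any 1 of the 4 libraries, NDRG1, BNIP3, CA9, PDK1 and NDUFA4L2 stayed higher in PPDO, with log2 fold changes of 1.78 to 2.31 for CA9 and of 9.24 to 10.28 for NDUFA4L2.

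Shares of cells were compared after each cell was thinned to 3000 UMIs, which left out 61 and 10 PPDO cells and 113 and 0 ductal-like cells. BNIP3 was then detected in 68.1% and 58.8% of PPDO cells and in 6.07% and 8.45% of ductal-like cells. NDRG1 was detected in 54.3% and 58.8% against 16.1% and 12.7%, and ADM in 28.7% and 28.6% against 1.03% and 0%. NDUFA4L2 was detected in 23.8% and 39.2% of PPDO cells and in 0.0978% and 0.0854% of ductal-like cells. Without thinning, the NDUFA4L2 shares were 42.2% and 61.9% against 0.695% and 0.683%. VEGFA was detected in fewer PPDO cells (25.5% and 23.9%) than ductal-like cells (30.8% and 34.1%). These shares count the 3' extensions, which made up more of VEGFA in ductal-like cells, and shares from the gene body alone were not computed. The EGLN1 shares overlapped between groups (38.8% and 35.2% against 24.6% and 39.5%). Both PPDO libraries were above both ductal-like sums for 6 of the 8 genes, as for 29.3% of the 13470 genes found in at least 1% of the cells of a library. The exact two-sided permutation test of 2 against 2 libraries cannot go below p = 0.333, which was its value for each gene but EGLN1 (exact p = 1).

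CA9 needs care in primary cells. Its share in ductal-like cells (3.77% and 7.86%) lay below that in immune-like cells (8.74% and 9.42%, median depth 6695 and 9128 UMIs), which are not known for this gene. No background share was measured, and whether the CA9 UMIs of primary duct cells are expression or background was not tested. The CA9 fold change given above is taken over these same UMIs. In PPDO the share was 13.3% and 14.3%.

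The 8 genes were then set beside further genes of the HIF pathway. Of 15 tested regulators of HIF, 7 rose, 6 fell and 2 did not pass, with a median log2 fold change of 0.24. The alpha subunit gene HIF1A stood at 260 and 266 CPM in PPDO against 196 and 167 CPM (log2 fold change 0.97 after scaling for composition, which raises PPDO, edgeR FDR 0.019). EPAS1, which encodes the alpha subunit HIF-2 alpha, went the other way, at 28.1 and 35.5 CPM against 233 and 167 CPM (log2 fold change -2.22, FDR 0.0061). The partner ARNT fell from 103 and 136 CPM in ductal-like cells to 53.0 and 49.6 CPM. EGLN3, a prolyl hydroxylase and HIF target, was at 183 and 164 CPM in PPDO and at 1.07 and 0.360 CPM in ductal-like cells (log2 fold change 8.25, FDR 0.0013). HIF proteins are controlled mainly by their stability, which RNA counts do not measure.

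Of 18 tested glycolysis genes that are HIF targets, 13 rose, 0 fell and 5 did not pass, with a median of 1.47. Among those that passed, the largest changes were in SLC16A3, which exports lactate (log2 fold change 7.58), LDHA, which makes lactate (4.59), ENO1 (3.29) and PKM (2.73). Among those that did not pass, HK2 stood at 85.5 and 91.7 CPM in PPDO but at 16.05 and 0.680 CPM in the ductal-like sums (log2 fold change 3.73, FDR 0.087). Of 32 tested other HIF targets, 15 rose, 5 fell and 12 did not pass, with a median of 0.98. P4HA2 and PLOD1, which modify collagen, rose (log2 fold changes 5.48 and 3.80), as did STC2 (4.36). PLOD2, a relative of PLOD1 and also a HIF target, fell (-3.09), as did VLDLR (-3.61) and EDN1, which encodes the vasoconstrictor endothelin (-6.71).

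**Figure D2:**
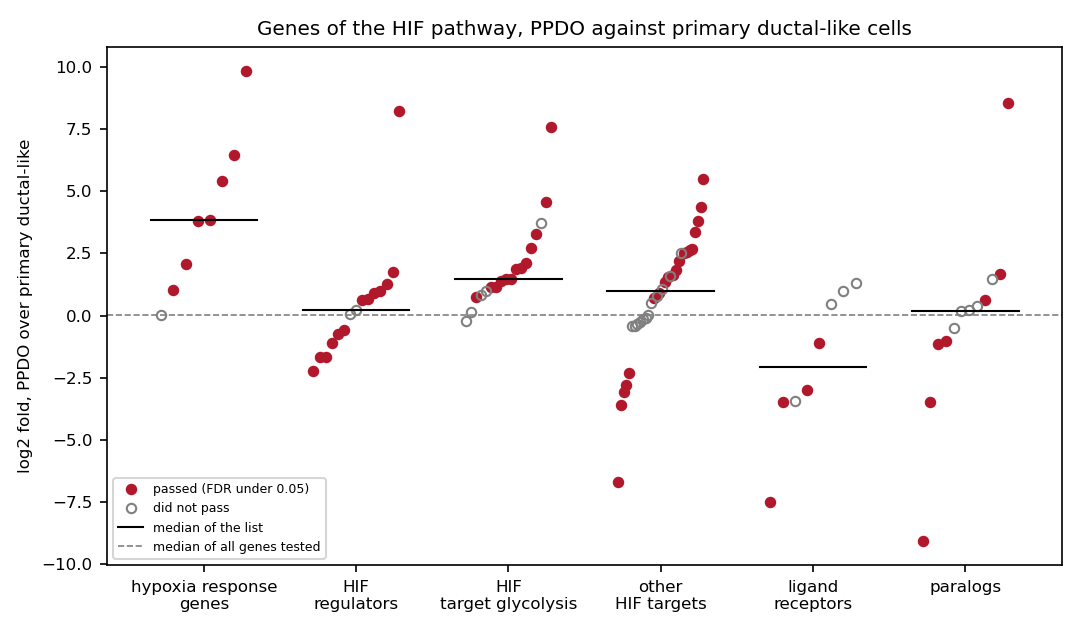
Log2 fold change of PPDO over primary ductal-like cells (vertical axis) for each tested gene of 6 lists, sorted within a list, where filled points passed edgeR at an FDR under 0.05, open points did not, black lines are list medians and the dashed line is the median of all genes tested. The 8 hypoxia response genes have the highest median (3.83) and the ligand receptors the lowest (-2.06). The lists were chosen with earlier results of these data known.

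Of 8 tested receptor and coreceptor genes through which VEGFA and ADM act, none rose in PPDO and 4 fell, where 22.9% of all genes were higher and 20.8% lower. KDR, the main VEGFA receptor of endothelium, was at 0.0532 and 0.0953 CPM in PPDO against 13.1 and 24.6 CPM (log2 fold change -7.49, edgeR FDR 0.0011). CALCRL, the core of the ADM receptor, was at 0.0631 and 0.168 CPM against 2.67 and 0.640 CPM (115 and 16 UMIs, log2 fold change -3.47, edgeR FDR 0.042). Endothelial-like cells made up 18.9% and 6.20% of primary pancreas 1 and 2. Free RNA was not corrected in these counts, and its part in the ductal-like values was not tested. The coreceptor genes NRP1 and NRP2 fell as well (-2.99 and -1.12).

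Of 12 tested relatives of the 8 genes, 3 rose, 4 fell and 5 did not pass, with a median of 0.19. PDK4, which inhibits the same enzyme as PDK1 and is typical of fasting and fat use, was at 268 and 268 CPM in ductal-like cells and at 0.412 and 0.309 CPM in PPDO (log2 fold change -9.09, FDR 3.2e-04). NDUFA4, the relative that NDUFA4L2 resembles, fell (-1.04), from 758 and 873 CPM to 314 and 265 CPM. The carbonic anhydrase gene CA2 fell (-3.48), and PGF, a VEGF family ligand, rose (8.55) to 62.6 and 79.4 CPM. Of 8 tested genes of a list that holds the stress factor ATF4 and its targets, 5 rose, ATF4 included, and 1 fell, among them DDIT4 and VLDLR, which are also in the list of HIF targets. Of 8 tested dissociation response genes, none passed edgeR at an FDR under 0.05, and none had an unadjusted p under 0.05. Of all genes, 43.7% passed. The ductal-like sums were far apart for most of these genes, as for FOS at 2028 and 178 CPM, with PPDO between them at 557 and 522 CPM. The lack of calls therefore does not show that the groups were alike.

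Within PPDO the 8 genes were not spread evenly over cells. At 3000 UMIs per cell, 35.2% and 35.5% of PPDO cells carried 4 or more of the 8 genes, and 11.6% and 11.8% carried none. In ductal-like cells, 0.391% and 0.683% carried 4 or more, and 40.1% and 29.4% carried none. These shares also rise and fall with the share of cells that carry each gene alone, and the shares expected from that were not computed. All 8 genes were found in 24 cells of PPDO 1 and 13 cells of PPDO 2.

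Co-detection was measured as the odds ratio that 2 genes are found in the same thinned cell. Over the 28 pairs the median odds ratio was 1.70 in PPDO 1 and 1.71 in PPDO 2. Pairs among ADM, VEGFA, EGLN1, NDRG1 and BNIP3 had the higher ratios for the most part, with ranges that overlapped the other pairs in PPDO 2. These 10 pairs had medians of 4.61 (range 3.77 to 10.4) and 3.26 (range 2.32 to 5.78) in PPDO 1 and 2, and ADM with BNIP3 was the highest of all pairs in both libraries. The 18 pairs with CA9, PDK1 or NDUFA4L2 had medians of 1.45 and 1.46. Without the ADM-led cluster described further on, the ratio of ADM with BNIP3 was 5.36 in place of 10.4 in PPDO 1 and 4.69 in place of 5.78 in PPDO 2, and the medians of the 10 pairs were 2.83 and 2.88. That cluster was picked for these genes among its leading genes, so that lower ratios without it follow in part from the choice. This grouping of 5 and 3 genes was made after the values were seen and has no test. The weakest pair was CA9 with PDK1 in PPDO 1 (1.05) and PDK1 with NDUFA4L2 in PPDO 2 (0.978). In ductal-like cells, where 14 and 12 pairs had an expected count of at least 5 cells, the odds ratios ran from 0.460 to 1.94 in primary pancreas 1 and from 0.693 to 1.93 in primary pancreas 2.

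**Figure D3:**
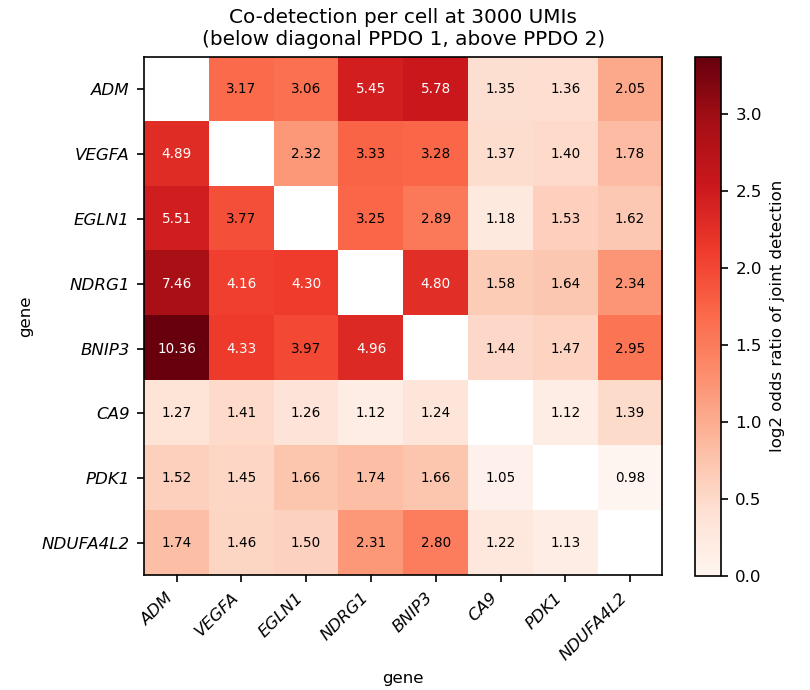
Odds ratio of joint detection for each pair of genes in cells thinned to 3000 UMIs, with PPDO 1 below and PPDO 2 above the diagonal and colour giving the log2 of the ratio. Pairs among ADM, VEGFA, EGLN1, NDRG1 and BNIP3 lie between 2.32 and 10.4, and pairs with CA9, PDK1 or NDUFA4L2 lie between 0.978 and 2.95.

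The correlation of each gene with the sum of the other 7 across thinned cells was also higher for these 5 genes than for the other 3. Pearson's r was 0.63 and 0.57 for BNIP3, 0.62 and 0.56 for NDRG1, 0.55 and 0.45 for ADM, 0.50 and 0.38 for EGLN1 and 0.41 and 0.34 for VEGFA. It was 0.23 and 0.29 for NDUFA4L2, 0.15 and 0.11 for PDK1 and 0.05 and 0.09 for CA9. These are descriptions over 8824 and 7327 cells that share a library. The tenth of cells with the highest sum of the other genes held 39.4% and 33.1% of all ADM UMIs, but 13.9% and 14.4% of those of CA9.

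PPDO cells were also grouped into 9 clusters, with the 8 genes and the HIF target lists kept out of the variable genes. A cluster led by ADM, TIMP3 and EGLN1, with VEGFA and BNIP3 also among its 10 leading genes, held 17.0% of PPDO 1 (1507 cells) and 10.3% of PPDO 2 (758 cells). The 8 genes together reached 7891 and 5387 CPM there, the highest sum of the 9 clusters in both libraries. This cluster was picked for having the most of the 8 genes among its 10 leading genes. High levels of these genes in it, and lower values without it, follow in part from that choice. ADM stood at 862 and 704 CPM in this cluster and at 27.5 and 40.7 CPM in the largest cluster, led by CXCL14 and HMCN1. Its cells were shallower, with a median of 19369 and 24560 UMIs against 37189 and 35393 UMIs in the largest cluster, and had 0.0970% and 0.188% mitochondrial UMIs against 0.492% and 0.486%. The part of depth and RNA quality in this cluster was not tested.

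Clusters led by IGFBP6 and PTGS2 and by PLXDC2 and PLA2G4E followed, with 3665 and 3452 CPM and with 4069 and 3131 CPM for the 8 genes. The lowest sums were in the largest cluster (790 and 861 CPM) and in a proliferating-like cluster led by DTL and ZNF367 (702 and 951 CPM). CA9 was highest in the IGFBP6 cluster, at 71.1 and 74.9 CPM, and not in the ADM cluster (61.0 and 66.7 CPM). NDUFA4L2 was lowest in a duct-like cluster led by SPP1 and CFD, at 15.5 and 39.2 CPM, where BNIP3 stood at 1086 and 669 CPM. In a small unnamed cluster led by S100A8 and S100A12, with 36 and 95 cells, NDUFA4L2 reached 564 and 472 CPM and EGLN1 only 17.3 and 17.6 CPM. In PPDO 2 NDUFA4L2 was higher in the ADM cluster (566 CPM) and the IGFBP6 cluster (533 CPM), which stood at 215 and 355 CPM in PPDO 1.

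**Figure D4:**
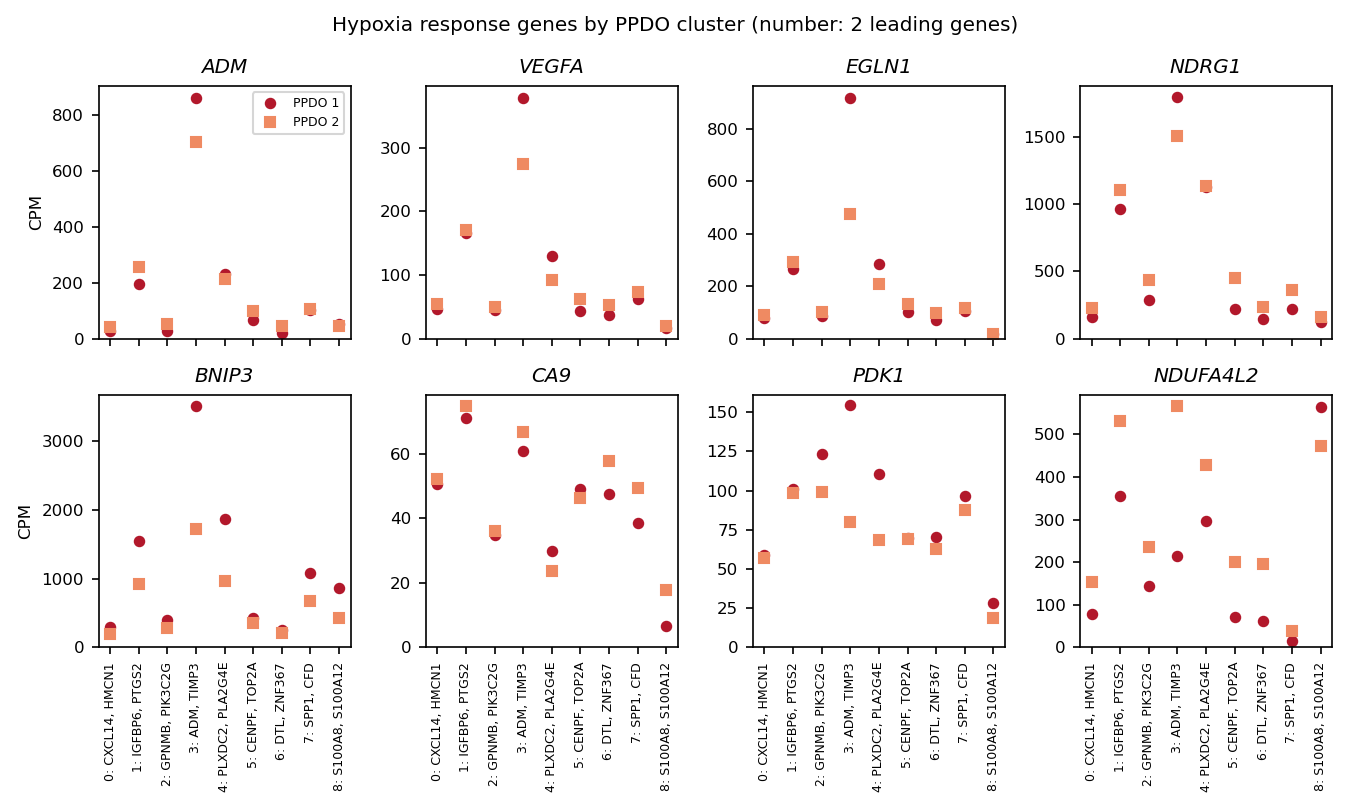
CPM of each gene (vertical axes, each from 0) in the 9 PPDO clusters (horizontal axis, cluster number and 2 leading genes), with PPDO 1 as circles and PPDO 2 as squares. ADM, VEGFA, EGLN1, NDRG1 and BNIP3 peak in the ADM cluster in both libraries, while CA9 peaks in the IGFBP6 cluster.

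Cells with 4 or more of the 8 genes also differed from cells with none in other measures. The summed glycolysis list stood at 7878 and 8072 CPM against 3432 and 3349 CPM, and the ATF4 list at 1264 and 1332 CPM against 682 and 701 CPM. The ATF4 list holds DDIT4, which is also in the list of HIF targets. In the likeness ranking described below, 2 of 5 ranked genes of the ATF4 list had a positive r, with a list median of -0.05. DDIT4 ranked highest of them. Proliferation genes were lower, at 108 and 148 CPM against 224 and 263 CPM, and so were WNT genes, at 260 and 269 CPM against 558 and 497 CPM. Median depth before thinning was 24466 and 30178 UMIs against 40626 and 37508 UMIs, and mitochondrial UMIs were 0.206% and 0.318% against 0.490% and 0.466%. These are sums over cells of a library, with no test, and the part of depth and RNA quality was not tested.

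Likeness to the set was measured for 5870 genes as the mean over both PPDO libraries of Pearson's r with the log sum of the 8 genes, in which BNIP3 and NDRG1 weigh most. GAPDH was first (mean r 0.61), followed by CDA (0.56), ENO1 (0.55), DDIT4 (0.46), EGLN3 (0.44), ERO1A (0.44), PTGES (0.40), TIMP3 (0.38), NTM (0.36) and SEMA3C (0.35). The lowest were HSD17B12 (-0.36), the mitochondrial genes ND5 (-0.35) and ND3 (-0.34), the chaperone gene HSPA8 (-0.34) and the basal keratin gene KRT15 (-0.33). The median over all ranked genes was -0.02. It was 0.19 for 16 glycolysis genes, 9 of them among the first 100, and 0.14 for 20 other HIF targets, 8 of them among the first 100.

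The 8 genes were also compared among the classes of primary pancreas. The sum of the 8 was lowest in acinar-like cells (146 and 93.4 CPM) and endocrine-like cells (186 and 202 CPM), and was 416 and 440 CPM in stellate-like cells and 402 and 459 CPM in immune-like cells. In acinar-like and endocrine-like cells the 20 highest genes took 50.6% to 72.0% of all UMIs, against 17.8% and 12.3% in ductal-like cells, which lowers the CPM of every other gene there. Classes were compared with ductal-like cells in a single edgeR fit over 16972 genes, with the library as a block.

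**Figure D5:**
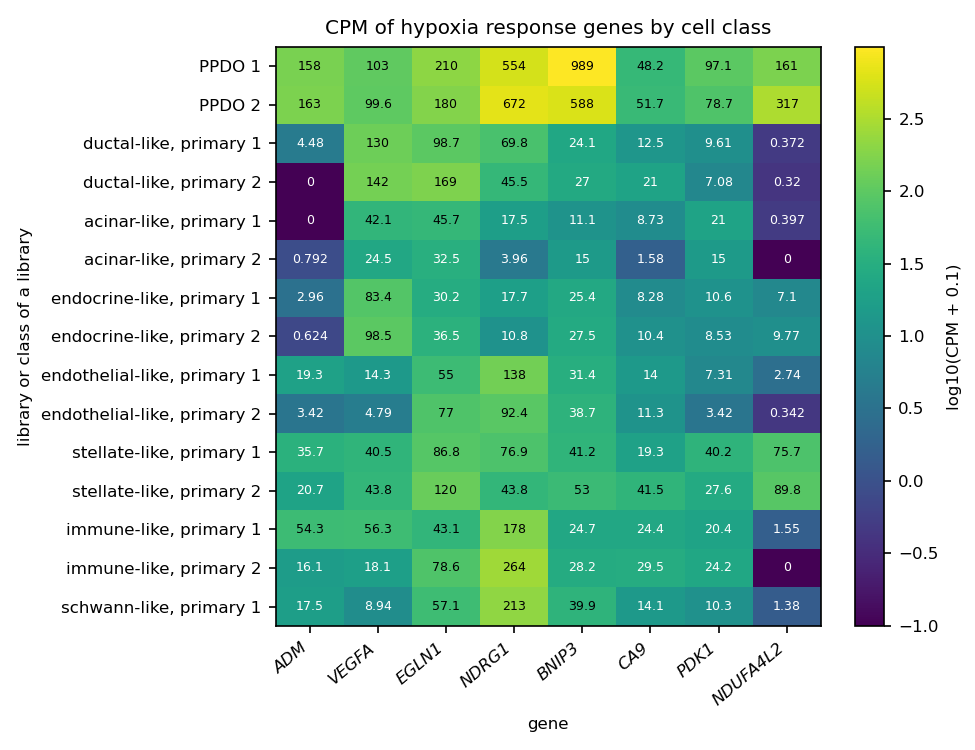
CPM of each gene (columns, printed values) in PPDO and in the classes of each primary library (rows), coloured by log10(CPM + 0.1). All genes but VEGFA are higher in both PPDO libraries than in every primary class shown. VEGFA is highest in ductal-like cells, with its 3' extensions counted.

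Of ductal-like cells and the classes tested against them, VEGFA had its highest CPM in ductal-like and endocrine-like cells. Schwann-like cells, with 1 cell in primary pancreas 2, were not among these classes. It stood at 130 and 142 CPM in ductal-like and at 83.4 and 98.5 CPM in endocrine-like cells, while the fitted log2 fold change of endocrine-like over ductal-like cells, which scales for composition, was 0.31 (edgeR FDR 0.67). It stood at 14.3 and 4.79 CPM in endothelial-like cells, which carry its receptors (log2 fold change -3.73, edgeR FDR 2.2e-05). It was also lower in stellate-like cells (-1.92, FDR 0.0074) and immune-like cells (-1.86, FDR 0.0053) than in ductal-like cells.

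ADM was highest in immune-like and stellate-like cells. It stood at 54.3 and 16.1 CPM in immune-like cells, at 35.7 and 20.7 CPM in stellate-like cells and at 19.3 and 3.42 CPM in endothelial-like cells, each above its ductal-like sum in both libraries. The log2 fold changes over ductal-like cells were 4.48 (edgeR FDR 1.4e-04), 3.89 (FDR 9.5e-04) and 2.76 (FDR 0.0064). These values moved with the ductal-like sums. They were 3.57, 3.07 and 1.93 without that of primary pancreas 2, and 10.18, 9.68 and 8.55 without that of primary pancreas 1, which leaves a ductal-like sum with 0 UMIs. The immune-like value came mainly from the cluster led by CD300C and SLC11A1, at 196 and 27.97 CPM. The cluster led by CCL8 and IL1A stood at 4.36 and 13.5 CPM, and that led by GNLY and KLRK1 at 0.574 and 0 CPM. Of the stellate-like clusters, that led by DCN and LUM stood at 57.6 and 43.6 CPM (312 and 7 cells) and that led by ITIH4 and ACTA2 at 17.0 and 16.4 CPM. Endothelial-like cells came in part from different clusters. That led by DYSF and FGF12 (680 and 2 cells) stood at 22.6 CPM in primary pancreas 1. That led by BTNL9 and RFLNB (0 and 193 cells) stood at 2.89 CPM in primary pancreas 2.

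NDUFA4L2 was highest in 1 cluster of the class named stellate-like, at 140 and 107 CPM. Its leading genes include ACTA2, MYH11 and RGS5, which are known from smooth muscle cells and pericytes. The other cluster of the class, led by DCN and LUM, which are known from fibroblasts, had 0.650 and 0 CPM. The class as a whole stood at 75.7 and 89.8 CPM (log2 fold change 7.66, edgeR FDR 1.6e-07), a value that comes from the ACTA2 cluster and not from the class as such. Endocrine-like cells stood at 7.097 and 9.77 CPM (log2 fold change 5.58, FDR 2.1e-06). The endothelial-like call (log2 fold change 2.54, FDR 0.0059) rested on 33 UMIs in primary pancreas 1 and 1 UMI in primary pancreas 2.

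NDRG1 was higher in immune-like than in ductal-like cells (178 and 264 CPM, log2 fold change 2.05, edgeR FDR 4.9e-04). The class was uneven, with 309 and 493 CPM in the CD300C cluster, 177 and 72.1 CPM in a cluster led by CCL8 and IL1A, and 62.0 and 13.6 CPM, below the ductal-like sums, in a cluster led by GNLY and KLRK1. Schwann-like cells of primary pancreas 1 stood at 213 CPM. It was also higher in endothelial-like cells (1.10, FDR 0.035) and lower in endocrine-like cells (-1.22, FDR 0.026). PDK1 was higher than in ductal-like cells in acinar-like cells (21.0 and 15.05 CPM, log2 fold change 2.63, FDR 1.4e-04), stellate-like cells (1.91, FDR 8.7e-04), immune-like cells (1.45, FDR 0.0050) and endocrine-like cells (1.06, FDR 0.036). These fitted values scale for composition. On the plain CPM scale PDK1 stood at 10.6 and 8.53 CPM in endocrine-like cells, which overlapped with 9.61 and 7.08 CPM in ductal-like cells. The acinar-like mean was 18.0 CPM against a ductal-like mean of 8.35 CPM. PDK1 was uneven within classes. In the acinar-like class of primary pancreas 1, the cluster led by CPB1 and NUPR1 stood at 26.9 CPM and that led by CELA2A and PLA2G1B at 10.2 CPM. Of the immune-like clusters, that led by GNLY stood at 32.7 and 50.3 CPM, that led by CCL8 at 18.6 and 4.51 CPM and the CD300C cluster at 9.65 and 11.99 CPM, against 9.61 and 7.08 CPM in ductal-like cells. Of the stellate-like clusters, that of ACTA2 stood at 58.1 and 32.9 CPM and that of DCN at 19.2 and 0 CPM. EGLN1 was lower in endocrine-like (-1.16, FDR 0.012), immune-like (-1.11, FDR 0.012) and endothelial-like cells (-0.89, FDR 0.041).

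BNIP3 ran from 11.12 to 53.0 CPM over ductal-like cells and the 5 classes compared with them, and passed only in endocrine-like cells (log2 fold change 0.86, edgeR FDR 0.049), where the plain CPM overlapped with ductal-like cells. CA9 passed in none of the 5 classes by edgeR at an FDR under 0.05, and none of its unadjusted p-values was under 0.05. By class, 1 of the 8 genes passed in acinar-like cells, and it was higher, where 25.0% of all genes passed, 9.58% higher and 15.5% lower. In endocrine-like cells 3 were higher and 2 lower (33.3% of all genes passed, 17.5% higher and 15.9% lower). In endothelial-like cells 3 were higher and 2 lower (36.5% of all genes, 18.4% and 18.2%). In stellate-like cells 3 were higher and 1 lower (31.4% of all genes, 16.8% and 14.6%), and in immune-like cells 3 were higher and 2 lower (41.6% of all genes, 19.3% and 22.3%). These comparisons share the ductal-like sums.

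Without any 1 of the sums in a comparison, the edgeR calls of PDK1 in acinar-like, NDUFA4L2 in endocrine-like and stellate-like, VEGFA in endothelial-like, ADM in stellate-like and immune-like and NDRG1 in immune-like cells held at an FDR under 0.05. Each of the other calls was lost without at least 1 sum. ADM in endothelial-like cells (FDR 0.11) and VEGFA in stellate-like cells (FDR 0.13) were lost without the class sum of primary pancreas 1, and VEGFA in immune-like cells was lost without that of primary pancreas 2 (FDR 0.071). With no replicate block for the library, the ADM calls in endothelial-like cells (FDR 0.18) and stellate-like cells (FDR 0.078) were lost.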

How the data were processed

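The authors sequenced 10x Chromium 3' libraries and deposited raw UMI counts per feature and cell, made with Cell Ranger 7.1.0 per the file headers. Barcode and feature tables, a unit recorded as other, were used for names. The authors' correction for free RNA is not in these counts. The 56060 features, 25770 of them 3' extensions, were summed to 30282 genes. Cells were kept by the study's limits, assuming for primary pancreas that title numbers match its sample numbers: at most 3% mitochondrial UMIs and 1000 to 9000 features in PPDO (the study's lower limit was 600 for the late postnatal line, which no label ties to a library, and 600 for both was an alternative), and under 8% in primary pancreas, where Scrublet scores over 0.25 and 0.15 were removed. Scanpy 1.11.5 and Leiden clustering (resolution 0.5) gave clusters. A class name needed 3 markers.

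Counts were summed per library and tested with edgeR 4.0.16 (TMM, filterByExpr, Benjamini-Hochberg, FDR under 0.05), with DESeq2 1.42.0 as an alternative. The SE was derived from the F statistic. The fits were also run on simulated counts with the same dispersion for every gene, below the common dispersion fitted here. That run does not measure their error rates in these data. Odds ratios had 0.5 added to each cell of the table. The named genes are the 8 genes, up to 4 genes per list with the largest change, receptors and relatives, the 10 most and 5 least alike genes, and cluster leaders. HIF1A, ARNT, HK2, PLOD2, FOS, ATF3 and the duct and basal markers were added after their values were seen. The 8 genes and all lists were chosen with earlier results of these data known.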

Additional observations from a re-analysis of the deposited data

Results flagged for a closer look

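Among the classes tested against ductal-like cells, in 6 cases a class lay above ductal-like cells in a primary library and below them in the other. Schwann-like cells, with 1 cell in primary pancreas 2, were left out. Each rests on 1 sum per library, and the differences were not tested. ADM in acinar-like cells was 0 CPM against 4.48 CPM in primary pancreas 1, and 0.792 CPM (1 UMI) against 0 CPM in primary pancreas 2. ADM in endocrine-like cells was 2.96 against 4.48 CPM and 0.624 against 0 CPM. NDRG1 in stellate-like cells was 76.9 against 69.8 CPM and 43.8 against 45.5 CPM. CA9 in endothelial-like cells was 14.0 against 12.5 CPM and 11.3 against 21.0 CPM. NDUFA4L2 was 0.397 against 0.372 CPM and 0 against 0.320 CPM in acinar-like cells, and 1.55 against 0.372 CPM and 0 against 0.320 CPM in immune-like cells, with at most 9 UMIs in any of these 4 class sums.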

How the results depend on the processing

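For PPDO against ductal-like cells, 7 of the 8 genes passed also with RLE factors (43.5% of all genes), with 600 features as the lower limit in PPDO (43.7%), without a filter on low counts (35.2%) and with the gene bodies alone (48.3%), and 5 to 7 passed without a library (21.8% to 43.5%). Calls over all genes numbered 10271, but 6072 (32.7%) with sums thinned to the smallest and 4675 to 10728 without a library. Calls among the genes of all lists ranged from 38 to 73 without a library, in fits where 21.8% to 43.5% of all genes passed. With DESeq2 the ADM call was lost (FDR 0.062). The VEGFA log2 fold change turned to -0.066 with thinned sums and to -0.353 without the ADM cluster, and ranged from -0.048 to 0.041 without a library. The alternatives without the ADM cluster, without the OSGIN1 cluster and without 3' extensions were chosen after seeing the data. The ADM cluster was itself picked for the 8 genes among its leading genes. Primary and PPDO libraries share only a number (correlation of same-numbered deviations -0.02). With the number as a block, 8216 of 23507 genes and 7 of the 8 passed.

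In primary classes, where 2 libraries limit precision, DESeq2 called 2 of the 8 genes in acinar-like cells (25.5% of all genes). Without the low-count filter 3 passed in endocrine-like (24.3%) and 3 in endothelial-like cells (24.0%), and with no replicate block 2 (27.6%) and 2 (30.9%) passed. Without a sum, 1 to 3 passed in endocrine-like (20.2% to 25.8% of all genes), 1 to 3 in endothelial-like (24.4% to 28.2%), 2 to 4 in stellate-like (16.6% to 26.0%) and 3 to 5 in immune-like cells (29.0% to 32.8%), and the NDUFA4L2 log2 fold change in endothelial-like cells ranged from -0.030 to 3.07. The mean of the 2 median odds ratios was 1.70. It was 1.79 at 5000 UMIs, 2.87 without thinning, 1.71 without doublet scores over 0.25 and 1.72 without the ADM cluster, and 1.70 to 1.71 without a library. The cause of these shifts was not tested.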
